A study of Mus musculus with 8 samples.

Results

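Ppp1r3a, Ppp1r3b, Ppp1r3c and Ppp1r3d, 4 subunits that bring protein phosphatase 1 to glycogen, and 6 enzymes of glycogen metabolism, Gys1, Pygm, Pygb, Gbe1, Ugp2 and Gyg, were followed in mouse hearts given the cardiac glycoside digoxin or vehicle. All 10 genes were measured, out of 22180 genes in all. They were selected on their function and with the digoxin against vehicle differences of these same arrays known, so those differences are given as a description and no p-value is attached to a member. The arrays came from hearts of male mice of 8 to 10 weeks, labelled C57BL6JRj and called C57BL6/J wild type in the growth protocol, on standard chow under 12 h of light and 12 h of dark. The digoxin group (5 arrays) received 1 mg/kg digoxin, an inhibitor of the Na/K-ATPase, by intraperitoneal injection at ZT5, where ZT0 is lights-on. The vehicle group (3 arrays) was injected at the same time with a solvent made of propylene glycol (40%) and ethanol (10%) with sodium phosphate (0.3%) and citric acid (0.08%), and all hearts were taken at ZT9. One of the 4 vehicle samples that the design describes was not analysed here. The animals carried no transgene or deletion according to the labels, and 1 dose and 1 time were studied.

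Glycogen is a branched glucose polymer that cardiac muscle stores and draws on when energy demand rises. Glycogenin primes each particle, glycogen synthase lengthens its chains from UDP-glucose, the branching enzyme adds the branch points, and glycogen phosphorylase releases glucose 1-phosphate. Synthase is active when dephosphorylated and phosphorylase when phosphorylated, so protein phosphatase 1 (PP1), held on the particle by a targeting subunit, favours synthesis, while phosphorylase kinase favours breakdown.

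Each value is a log2 expression value that the authors centred for each probe set, so a value of 1 on one array against 0 on another stands for a doubling, and no absolute level in the heart, and no order of levels between genes, can be read from it. For the same reason the cardiac origin of the tissue could not be checked from marker levels. In a whole heart, fewer cells of a type and less RNA per cell cannot be told apart. With 3 arrays in the smaller group, precision is limited by array number. Vehicle replicate 3 had the widest spread over probe sets, with an interquartile range of 0.216 against 0.0792 to 0.115 on the other 7 arrays. By the numbers in the labels all vehicle arrays preceded all digoxin arrays, so treatment and array order cannot be told apart. Of all genes tested with limma (Benjamini-Hochberg adjusted p under 0.05), 0.947% rose and 0.415% fell with digoxin, and the median log2 change over all genes was -0.0112.

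The sequence upstream of Ppp1r3c is shown because this subunit had the largest difference between the groups, and those of Ppp1r3a and Ppp1r3d because they belong to the same family and behaved otherwise. Each is the 250 bases before the start of the gene in RefSeq, build GRCm38.p6, minus strand, printed 5′ to 3′: chr19:36736605-36736854 for Ppp1r3c, chr6:14755275-14755524 for Ppp1r3a and chr2:178414464-178414713 for Ppp1r3d. By symbol, 9 of the 10 members matched a promoter entry, all but Ppp1r3b. Capitals mark matches, on either strand, to any of 5 motifs: the E-box CACGTG, the cAMP response element TGACGTCA, the core ACANNNTGT of a steroid receptor element, the CCAAT box CCAAT and the TATA box TATAAA.
Ppp1r3c: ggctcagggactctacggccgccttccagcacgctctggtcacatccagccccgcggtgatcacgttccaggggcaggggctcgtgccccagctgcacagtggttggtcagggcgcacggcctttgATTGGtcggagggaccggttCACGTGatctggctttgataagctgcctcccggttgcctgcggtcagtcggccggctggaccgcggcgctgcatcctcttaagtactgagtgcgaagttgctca
Ppp1r3a: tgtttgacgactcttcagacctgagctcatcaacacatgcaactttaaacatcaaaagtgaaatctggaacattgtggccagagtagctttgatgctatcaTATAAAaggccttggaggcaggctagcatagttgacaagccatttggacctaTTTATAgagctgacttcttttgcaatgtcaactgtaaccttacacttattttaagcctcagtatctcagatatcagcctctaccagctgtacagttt
Ppp1r3d: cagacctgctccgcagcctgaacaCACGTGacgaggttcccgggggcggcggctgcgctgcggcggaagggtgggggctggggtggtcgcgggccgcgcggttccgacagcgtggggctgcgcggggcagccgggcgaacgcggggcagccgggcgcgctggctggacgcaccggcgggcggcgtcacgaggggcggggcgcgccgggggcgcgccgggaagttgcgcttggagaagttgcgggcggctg

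The Ppp1r3c window held an E-box at bases 104 to 99 before the start and a CCAAT box, read on the other strand, at bases 124 to 120. The Ppp1r3d window held an E-box at bases 226 to 221 before the start. No other member had CACGTG in its window, a motif found in 6.02% of 32851 such windows of RefSeq genes. The Ppp1r3a window had matches to the TATA box on both strands, at bases 149 to 144 and 97 to 92, a motif found in 12.4% of windows. Gys1 and Ugp2 also had the CCAAT box, as did 33.8% of all windows. TGACGTCA (1.55% of all windows) and ACANNNTGT (5.84%) were in the window of no member. The 3 printed windows differed in base composition, with 40.4% G and C in Ppp1r3a, 64.4% in Ppp1r3c and 79.2% in Ppp1r3d, against a median of 52.4% over all windows. None of these motif matches overlapped another, and a match is a description of letters, not of a bound site.

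Among the targeting subunits, Ppp1r3c stood far above vehicle in every digoxin heart. Ppp1r3c encodes PTG (protein targeting to glycogen), a widely expressed scaffold that brings PP1 together with synthase and phosphorylase. Its centred log2 values in digoxin replicates 1 to 5 were 1.02, 1.12, 1.23, 0.61 and 1.38, and in vehicle replicates 1 to 3 they were -0.35, 0.034 and -0.27. The groups did not overlap, and the lowest digoxin heart, replicate 4, lay 0.58 above the highest vehicle heart, replicate 2. The means were 1.07 ± 0.29 (SD, n = 5) with digoxin and -0.19 ± 0.20 (SD, n = 3) with vehicle, a log2 change of 1.27 (SE 0.16, 95% interval 0.89 to 1.64) and 2.41 times the vehicle level. Counting Ppp1r3c, 16 of the 22180 genes had a rise of that size or more.

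**Figure D1:**
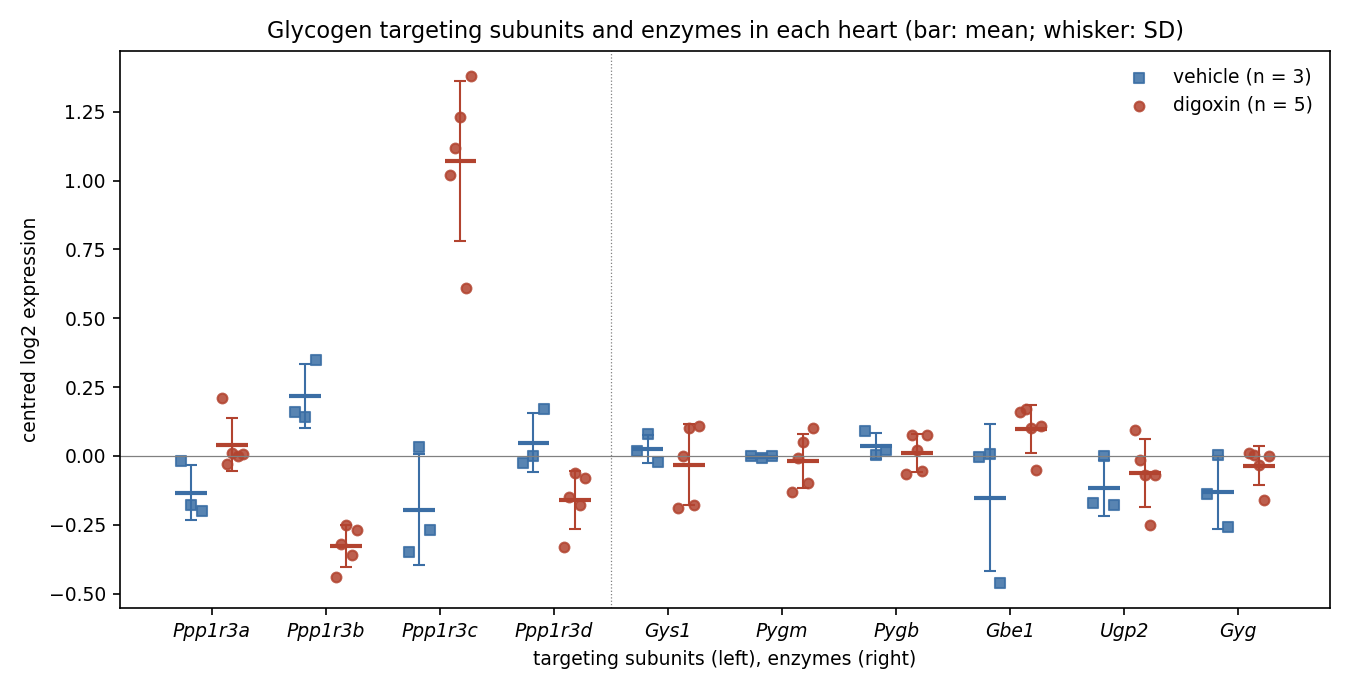
Centred log2 expression (vertical axis) of each of the 10 genes (horizontal axis) in 3 vehicle hearts (blue squares) and 5 digoxin hearts (red circles), with the mean as a bar and the SD as a whisker; the dotted line separates subunits from enzymes. Ppp1r3c in digoxin hearts lies between 0.61 and 1.38, above every vehicle heart, Ppp1r3b in digoxin hearts lies between -0.44 and -0.25, below every vehicle heart, and all 6 enzymes overlap between the groups.

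Ppp1r3b moved the other way. It encodes GL, the targeting subunit best known from liver, which also binds active phosphorylase. Averaged over its probe sets, its centred log2 values were -0.44, -0.32, -0.25, -0.36 and -0.27 in digoxin replicates 1 to 5 and 0.16, 0.14 and 0.35 in vehicle replicates 1 to 3. Every digoxin heart was below every vehicle heart, by at least 0.40. The means of -0.33 ± 0.074 (SD, n = 5) and 0.22 ± 0.11 (SD, n = 3) gave a log2 change of -0.55 (SE 0.064, 95% interval -0.69 to -0.40), so that the vehicle level was 1.46 times the digoxin level. Counting Ppp1r3b, 41 genes had a log2 change as low or lower.

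Ppp1r3b was the one member with 2 probe sets, and they differed in size but not in direction. Probe set 17500543 read -0.72, -0.40, -0.36, -0.50 and -0.37 in digoxin replicates 1 to 5 and 0.20, 0.22 and 0.28 in vehicle replicates 1 to 3. Probe set 17500548 read -0.16, -0.25, -0.14, -0.21 and -0.18 in the digoxin hearts and 0.13, 0.069 and 0.42 in the vehicle hearts. In neither did the groups overlap. The log2 change was -0.70 (SE 0.083) in the former and -0.39 (SE 0.078) in the latter. The lowest digoxin value came from replicate 1 in one probe set and replicate 2 in the other, and vehicle replicate 3 was the highest vehicle heart in both.

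Ppp1r3d, which encodes the targeting subunit R6, was lower with digoxin by a smaller amount. Its values were -0.33, -0.15, -0.062, -0.18 and -0.079 in digoxin replicates 1 to 5 and -0.024, 0.00 and 0.17 in vehicle replicates 1 to 3. The groups did not overlap, but the highest digoxin heart, replicate 3, lay 0.038 below the lowest vehicle heart, a gap smaller than the SD of 0.11 in either group. The log2 change was -0.21 (SE 0.073, 95% interval -0.38 to -0.044).

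Ppp1r3a encodes GM, the large striated-muscle subunit that is anchored to the sarcoplasmic reticulum. It read 0.21, -0.028, 0.012, 0.00 and 0.007 in digoxin replicates 1 to 5 and -0.019, -0.18 and -0.20 in vehicle replicates 1 to 3. The groups overlapped, since digoxin replicate 2 was below vehicle replicate 1, and digoxin replicate 1 stood apart above the other digoxin hearts. The log2 change was 0.17 (SE 0.068, 95% interval 0.018 to 0.33). Its order over the vehicle hearts was not that of Ppp1r3c, which was lowest in vehicle replicate 1, where Ppp1r3a was highest.

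Of the enzymes that build glycogen, Gys1, Ugp2 and Gyg differed between the groups by less than the range within either group. Gys1, the muscle form of glycogen synthase, read -0.19, 0.00, 0.10, -0.18 and 0.11 in digoxin replicates 1 to 5 and 0.018, 0.079 and -0.023 in vehicle replicates 1 to 3. Digoxin hearts lay on both sides of the vehicle range, with 2 above it and 2 below it, and the log2 change was -0.057 (SE 0.081, 95% interval -0.24 to 0.13). Ugp2, which makes the UDP-glucose that synthase uses, ranged from -0.25 to 0.094 with digoxin and from -0.18 to 0.00 with vehicle, with a log2 change of 0.057 (95% interval -0.12 to 0.24). Gyg, the glycogenin gene, ranged from -0.16 to 0.0092 with digoxin and from -0.26 to 0.0026 with vehicle, with a log2 change of 0.095 (95% interval -0.058 to 0.25). The groups overlapped in both genes.

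Gbe1, the branching enzyme, had the largest difference among the enzymes, and much of its size came from 1 vehicle heart. Its values were 0.16, 0.17, 0.10, -0.051 and 0.11 in digoxin replicates 1 to 5 and -0.0051, 0.0082 and -0.46 in vehicle replicates 1 to 3. Of the digoxin hearts, 4 were above every vehicle heart and replicate 4 was not. The log2 change was 0.25 (SE 0.11, 95% interval 0.0054 to 0.50) with all arrays and 0.10 without vehicle replicate 3.

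The phosphorylases, which break glycogen down, had log2 changes close to 0. Pygm, the muscle form whose loss causes McArdle disease, read -0.13, -0.0075, 0.051, -0.10 and 0.10 in digoxin replicates 1 to 5 and 0.00, -0.0085 and 0.00 in vehicle replicates 1 to 3. The log2 change was -0.014 (SE 0.059, 95% interval -0.15 to 0.12). Its vehicle hearts were nearly equal, with an SD of 0.0049 (n = 3), a spread smaller than that of all but 0.627% of genes, while its digoxin SD was 0.10 (n = 5). Vehicle replicates 1 and 3 both read exactly 0.00 after centring on a reference that is not stated. The part of the centring in this small SD was not tested. Pygb, named for brain and also expressed in heart, read -0.066, 0.076, 0.021, -0.055 and 0.076 with digoxin and 0.09, 0.0015 and 0.02 with vehicle, a log2 change of -0.027 (SE 0.051, 95% interval -0.14 to 0.088). The intervals of both phosphorylases lay within -0.15 to 0.12, and did not reach the changes of Ppp1r3c or Ppp1r3b.

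Counted together, 1 of the 10 genes (Ppp1r3c) was higher in every digoxin heart than in every vehicle heart, as were 4.40% of all genes, and 2 (Ppp1r3b and Ppp1r3d) were lower in every digoxin heart, as were 3.76% of all genes. The limma fit over all genes called Ppp1r3c as a rise and Ppp1r3b as a fall, against the 0.947% and 0.415% of all genes given above, and the other 8 were not called. Fitted on its own, probe set 17500548 of Ppp1r3b was not called. Because the genes were chosen with this contrast known, nothing is read from these counts. The median log2 change over the 10 genes was 0.021, with 5 means higher and 5 lower, and the largest differences were opposite in direction within 1 family of subunits.

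Leaving out each array in turn kept the sign of every member but Pygm, whose value lay between -0.044 and 0.015. The log2 change of Ppp1r3c lay between 1.19 and 1.38 and that of Ppp1r3b between -0.59 and -0.48. For Ppp1r3d the range was -0.25 to -0.15 and for Ppp1r3a it was 0.13 to 0.23.

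**Figure D2:**
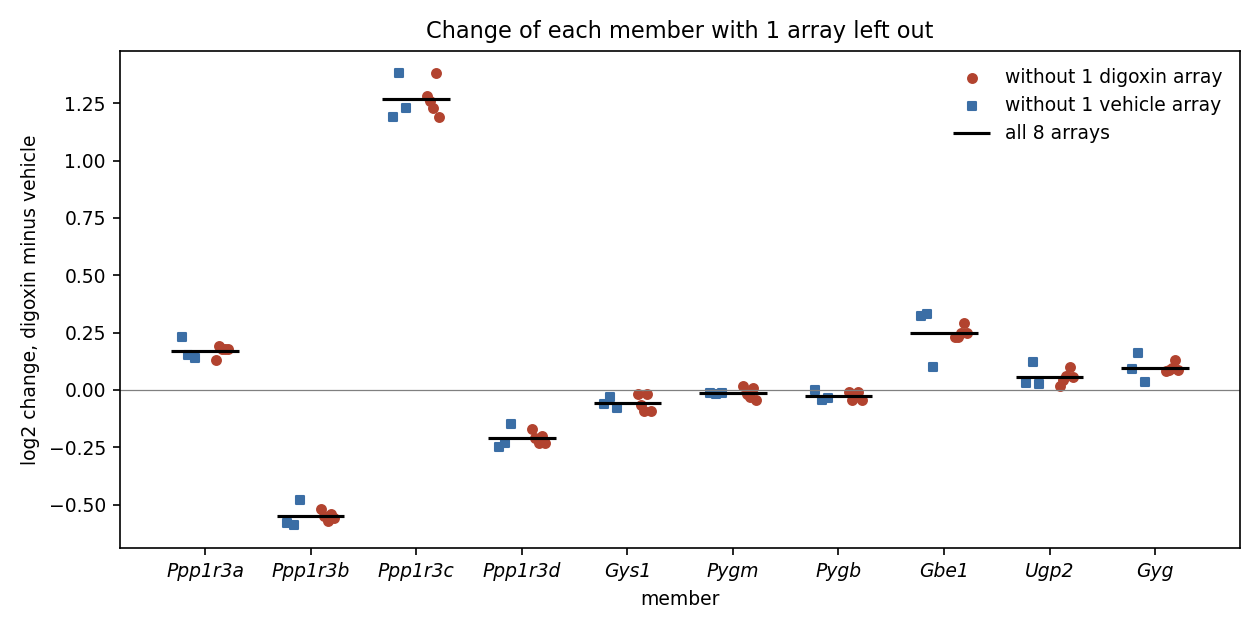
The log2 change of each gene (vertical axis, digoxin minus vehicle) with all 8 arrays (black line), without 1 digoxin array (red circles) and without 1 vehicle array (blue squares). Ppp1r3c stays between 1.19 and 1.38 and Ppp1r3b between -0.59 and -0.48, while Gbe1 falls to 0.10 without vehicle replicate 3.

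The spread among hearts of one group was not used to choose the genes. Over digoxin hearts Ppp1r3c varied most of the 10, with an SD of 0.29, larger than that of 98.5% of genes. Over vehicle hearts its SD of 0.20, larger than that of 81.2% of genes, was below that of Gbe1. Gys1 had an SD of 0.14 over digoxin hearts, larger than that of 88.1% of genes, but of 0.051 over vehicle hearts, larger than that of 20.6%. Gbe1 was the reverse, with 0.089 and 0.26, the latter larger than that of 91.6% of genes. The median SD of the 10 genes was 0.10 over digoxin hearts and 0.11 over vehicle hearts, beside 0.076 and 0.11 over all genes. Without vehicle replicate 3 the vehicle value was 0.053 for the 10 genes and 0.055 for all genes, and without vehicle replicate 2 it was 0.068 and 0.11.

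Digoxin replicates 1 and 4 were the 2 lowest digoxin hearts in 6 of the 10 genes (Gys1, Pygm, Pygb, Ppp1r3b, Ppp1r3c and Ppp1r3d), as they were in 13.3% of all genes. This pair of hearts was singled out after the values were seen. The mean of 10 ventricular cardiomyocyte markers was also lowest in those hearts, at -0.055 in replicate 1 and -0.059 in replicate 4, against -0.00083 to 0.033 in the other digoxin hearts. Replicate 4 was in addition the lowest digoxin heart for Ppp1r3c, Gbe1, Ugp2 and Gyg, and the highest for none of the 10 genes. In that heart the mean of 6 atrial markers was 1.88 and the mean of 7 adipocyte markers was 0.48, the highest of the digoxin hearts in both. The atrial mean was lower in replicate 1 (0.36) than in replicate 3 (1.12). Fibroblast means were highest in replicates 1 and 4 (0.15 and 0.10, against -0.10 to 0.0033 in the other digoxin hearts). So were macrophage means (0.10 and 0.28, against -0.045 to 0.08). The part of these markers in the values of the members was not tested.

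**Figure D3:**
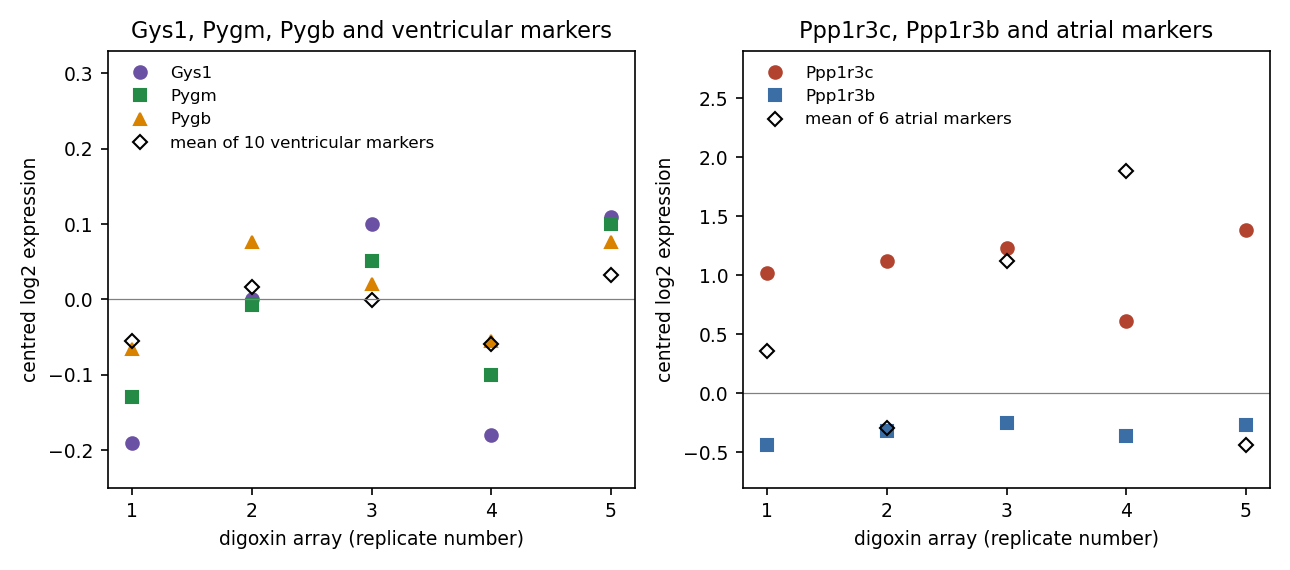
Centred log2 expression (vertical axes) in the 5 digoxin hearts (horizontal axes, replicate number). On the left, Gys1, Pygm, Pygb and the mean of 10 ventricular markers are lowest in replicates 1 and 4; on the right, Ppp1r3c is lowest (0.61) and the mean of 6 atrial markers highest (1.88) in replicate 4, while Ppp1r3b lies between -0.44 and -0.25.

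Marker means of 9 cell types were compared between the groups over arrays by permutation (exact, two-sided, smallest possible p 0.0179), and adjusted p-values lay between 0.321 and 0.893. After adjustment over 9 lists, a single list at the smallest possible p could not pass 0.05. The adjusted values therefore cannot show that the cell types were alike in the groups. The ventricular list had a mean of -0.013 with digoxin and 0.0013 with vehicle. The atrial list (Myl7, Myl4, Nppa, Sln, Bmp10 and Stard10) varied widely, from -0.44 to 1.88 over digoxin hearts and from 0.27 to 2.43 over vehicle hearts, and differed by -0.94 (exact permutation adjusted p = 0.522). That difference was -1.53 when vehicle replicate 3 was left out and -0.45 when vehicle replicate 1 was. Ppp1r3c and Ppp1r3b are known from adipose tissue and liver as well as muscle. The adipocyte list ranged from -0.13 to 0.48 over digoxin hearts and from -0.073 to 0.037 over vehicle hearts, and its part in the values of the members was not tested. The hepatocyte list differed by -0.11 (exact permutation p = 0.0357, adjusted p = 0.321), with -0.081 to 0.0018 over digoxin hearts and -0.016 to 0.19 over vehicle hearts, and by -0.045 without vehicle replicate 3. The skeletal muscle list ranged from -0.04 to 0.0066 and from -0.035 to 0.19. With all arrays the differences were -0.053 for fibroblasts, 0.011 for endothelial cells, 0.059 for macrophages and -0.21 for the single measured erythroid gene, Slc4a1. With 1 array left out, the fibroblast difference lay between -0.10 and -0.022 and that of Slc4a1 between -0.33 and -0.14. Of the 54 markers measured, 0 passed in limma, where 0.947% of all genes rose and 0.415% fell. An unadjusted p under 0.05 was found for 10 markers, and for 12.3% of all genes.

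The 3 remaining targeting subunits and the catalytic subunits of PP1 did not pass the test. Of these 6 genes 0 rose and 0 fell in limma, beside 0.947% and 0.415% of all genes. In this list 1 had an unadjusted p under 0.05 (12.3% of all genes did), and the median log2 change was -0.067. Ppp1r3f stood at -0.16 (SE 0.059, limma adjusted p = 0.329), with every digoxin heart below every vehicle heart by 0.0069 or more. Ppp1cb, a catalytic subunit, stood at 0.23 (SE 0.17, limma adjusted p = 0.632) and ranged over 0.68 within the digoxin group; its log2 change was 0.12 without vehicle replicate 3 and 0.42 without vehicle replicate 1. Ppp1r3e stood at -0.077 and Ppp1r3g at -0.056, and the catalytic subunits Ppp1ca and Ppp1cc at -0.035 and -0.10.

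Among other genes of glycogen turnover, 0 of 9 measured genes rose and 0 fell in limma, beside 0.947% and 0.415% of all genes. Of these, 1 had an unadjusted p under 0.05, beside 12.3% of all genes. The median log2 change was 0.056, or 0.036 without vehicle replicate 3. Pgm1 was not analysed here. Epm2a encodes laforin, a glycogen phosphatase lost in Lafora disease. It read -0.022, 0.029, 0.019, 0.00 and 0.21 in digoxin replicates 1 to 5 and -0.074, -0.12 and -0.71 in vehicle replicates 1 to 3. The groups did not overlap, but vehicle replicate 3 lay far below the rest, and the log2 change of 0.35 (SE 0.14, limma adjusted p = 0.343) did not pass. Without that array it was 0.15. Nhlrc1, which encodes malin, the ubiquitin ligase that works with laforin, stood at 0.14, and Pgm5, a phosphoglucomutase relative, at -0.14 (limma adjusted p = 0.415), with -0.09 without vehicle replicate 2 and -0.23 without vehicle replicate 3.

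Kinases that act on synthase and phosphorylase also gave 0 rises and 0 falls in limma among 17 measured genes, beside 0.947% and 0.415% of all genes. An unadjusted p under 0.05 was found for 2 of them, beside 12.3% of all genes. The median log2 change was 0.052, or 0.025 without vehicle replicate 3. Gsk3a was not analysed here. Phkg2, a catalytic subunit of phosphorylase kinase, read -0.034, 0.22, 0.22, 0.27 and 0.24 in digoxin replicates 1 to 5 and -0.037, -0.026 and -0.31 in vehicle replicates 1 to 3. Digoxin replicate 1 lay among the vehicle hearts and the other digoxin hearts above them. The log2 change was 0.31 (SE 0.089, limma adjusted p = 0.186), or 0.21 without vehicle replicate 3. Phka2, a regulatory subunit of the same kinase, stood at 0.28 (SE 0.12, limma adjusted p = 0.369), and at 0.14 without vehicle replicate 3 and 0.43 without vehicle replicate 1. Phkg1, Phka1 and Phkb, further subunits of phosphorylase kinase, stood at -0.013, 0.10 and 0.14. Gsk3b, which phosphorylates synthase, stood at 0.10, and Prkag2, the AMP-activated kinase subunit mutated in a glycogen storage cardiomyopathy, at -0.10.

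For glucose entry 4 genes were measured, of which 0 passed in limma, where 0.947% of all genes rose and 0.415% fell. An unadjusted p under 0.05 was found for 2 of the 4, beside 12.3% of all genes. Gpi1 was not analysed here, and the median log2 change was 0.069. Slc2a4, the insulin-responsive transporter GLUT4, stood at 0.17 (SE 0.068, limma adjusted p = 0.354) and Hk2, hexokinase 2, at 0.12 (SE 0.052, limma adjusted p = 0.381), and in each 4 of the 5 digoxin hearts were above every vehicle heart. Slc2a1 and Hk1 stood at 0.016 and 0.0016.

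Of 26 other PP1 regulatory subunits, 0 rose and 1 fell in limma, beside 0.947% and 0.415% of all genes. An unadjusted p under 0.05 was found for 4 of them, beside 12.3% of all genes. Ppp1r1b was not analysed here. The gene that fell was Ppp1r10, also called PNUTS, a nuclear subunit, at -1.07 (SE 0.083, limma adjusted p = 0.000565). It read between -0.45 and -0.092 in digoxin hearts and between 0.66 and 0.81 in vehicle hearts, so the groups were 0.75 apart. Ppp1r16b, an endothelial subunit, stood at -0.32 (limma adjusted p = 0.171) and Ppp1r21 at 0.34 (limma adjusted p = 0.42), or 0.19 without vehicle replicate 3 and 0.13 with array weights. The median log2 change of the list was 0.026 with all arrays and -0.032 without vehicle replicate 3, and 25 of its genes did not pass.

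**Figure D4:**
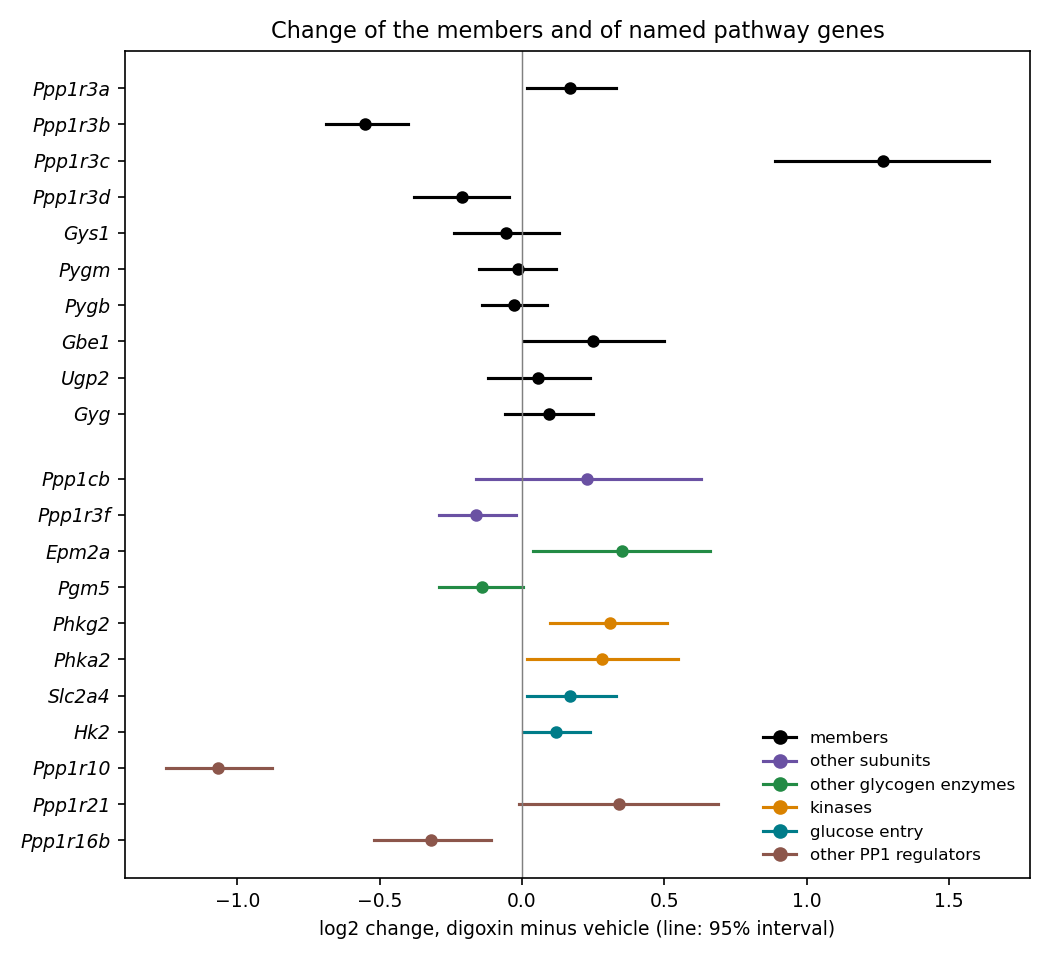
The log2 change (horizontal axis, digoxin minus vehicle) with its 95% interval for the 10 members (black) and for 11 named genes of 5 related lists (colours). Ppp1r3c (1.27) and, in the other direction, Ppp1r10 (-1.07) and Ppp1r3b (-0.55) lie apart from the rest, and the intervals, not adjusted over genes, include 0 for 5 of the 6 enzymes among the members.

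Genes whose profile over the 8 arrays was nearest to Ppp1r3c were sought by root mean square difference after each gene was set to a mean of 0, among 18803 genes. This measure includes the difference between the groups and the order of hearts within each group. Likeness in either is therefore built in, and what follows is a description. Depp1 (0.22), Gadd45g (0.24) and Rnf144b (0.241) were the nearest. Depp1 read 0.92, 1.14, 1.33, 0.95 and 1.27 in digoxin replicates 1 to 5 and -0.68, -0.33 and -0.50 in vehicle replicates 1 to 3. It was lowest in digoxin replicate 1 and highest in digoxin replicate 3, whereas Ppp1r3c was lowest in replicate 4 and highest in replicate 5. In both genes digoxin replicates 1 and 4 lay below digoxin replicate 2, and digoxin replicates 3 and 5 lay above it. The log2 changes were 1.63 for Depp1, 1.28 for Gadd45g and 1.02 for Rnf144b. For Ppp1r3b the nearest genes were Carmn (0.0978), Pik3c2b (0.103) and Lrrn4cl (0.104), with log2 changes of -0.44, -0.39 and -0.44. Pik3c2b, like Ppp1r3b, was lowest in digoxin replicate 1, at -0.45. Among digoxin hearts Carmn was instead lowest in replicate 4, at -0.089, and Lrrn4cl in replicates 3 and 5, at -0.13.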

How the data were processed

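RNA of 8 hearts was measured on Affymetrix Mouse Gene 2.0 ST arrays. Each array is taken as 1 mouse, and p-values reflect only the spread between arrays. Per the series design text, the authors applied Robust Multi-array Average normalization in the Galaxy suite GIANT. The submitters' processing notes name limma, with tool versions not given in the sources used. The deposited log2 values had been centred, probe set by probe set, on a reference that is not stated, and the log base is that of the normalization method. Of 34351 probe sets, 23521 carried exactly 1 symbol in the platform annotation, 1814 several and 9016 none. Probe sets of a gene were averaged, which gave 22180 genes.

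Groups were compared in R 4.3.3 by limma 3.58.1 (default eBayes, two-sided, no covariate; Benjamini-Hochberg over all genes, threshold 0.05), a script tested on simulated data. SE and 95% intervals are those of the fit (residual degrees of freedom 6, prior 2.75). Centred values allow no filter on dim genes, so one on variance was tried. Members and lists were chosen with earlier results of these data known. Named were all members, genes of each related list past the test with the 2 largest changes that did not pass, and the 3 nearest profiles of Ppp1r3c and Ppp1r3b. Other genes of the lists given by value (Ppp1r3e, Ppp1r3g, Ppp1ca, Ppp1cc, Nhlrc1, Phkg1, Phka1, Phkb, Gsk3b, Prkag2, Slc2a1 and Hk1) were named after their values were seen. No 2 arrays were duplicates (root mean square difference at least 0.12). Alternatives covered normalization, probe sets, variance model, weights, a variance filter, the replicate block and each array left out.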

Additional observations from a re-analysis of the deposited data

Results flagged for a closer look

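In 30 sets of 5 digoxin arrays (the 10 members, 11 named genes and 9 marker means), 6 had 1 array far from the other 4 by Dixon's ratio, where about 1 in 20 is flagged by chance and 9.28% of all genes had such an array. Ppp1r3a stood at 0.21 in digoxin replicate 1, against -0.028 to 0.012 in the others. Gyg stood at -0.16 in digoxin replicate 4, against -0.032 to 0.0092. Epm2a stood at 0.21 in digoxin replicate 5, against -0.022 to 0.029. Phkg2 stood at -0.034 in digoxin replicate 1, against 0.22 to 0.27. Hk2 stood at -0.16 in digoxin replicate 4, against 0.00 to 0.043. The endothelial marker mean stood at -0.12 in digoxin replicate 1, against -0.063 to -0.042.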

How the results depend on the processing

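With 210 rises and 92 falls over all genes, the counts with 1 array left out lay between 123 and 185 rises and between 29 and 189 falls. Array weights gave 320 falls, and leaving out both digoxin replicate 4 and vehicle replicate 3, chosen after the data were seen, gave 282 falls. With the replicate number as a block there were 11 rises and 1 fall; Ppp1r3c, Ppp1r3b and Ppp1r10 kept their direction (1.32, -0.56 and -1.10) but were not called, and the related lists had 0 falls. Same-numbered arrays did not deviate together (correlations of -0.197, -0.0177 and 0.0236), but so few correlations cannot show whether the samples were paired. The replicate block also leaves fewer residual degrees of freedom than the main fit. Ppp1r3c was called in its other 15 alternatives. Ppp1r3b gave -0.70 (called) and -0.39 (not called) on its separate probe sets, and was called in its other alternatives. The members were chosen with this contrast known, so these calls are a description and nothing is read from them. With 1 array left out, marker differences ran from -0.017 (without digoxin replicate 4) to 0.14 for adipocytes, from -0.07 (without vehicle replicate 3) to 0.058 for endothelial cells and from -0.094 (without vehicle replicate 3) to 0.15 for macrophages. With quantile normalization the last 2 were -0.031 and -0.0052. The cause was not tested. Centred values give no signal over background.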
